A study of Mus musculus with 6 samples.

Results

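The BCL2 family decides whether mitochondria release the factors that start apoptosis, and 10 of its genes were followed in mouse cortical neurons after knockdown of the microRNA miR-27b. They are the BH3-only genes Bbc3, Pmaip1, Bmf, Bcl2l11 and Bid, the effector genes Bax and Bak1, and the anti-apoptotic genes Bcl2, Bcl2l1 and Mcl1. All probes whose platform gene symbol is one of these names were taken, which gave 20 of the 45281 probes of the bead array. They cover 9 of the 10 genes, since no probe used here carries the symbol Bax. Detection, meaning a detection p-value below 0.05, was required on 3 or more arrays; 14 of the 20 probes met it and represent 8 genes of the 11280 tested. Bmf is covered by 1 probe, which was not detected on any array. Each of the 8 tested genes was detected on at least 2 of 3 arrays in both groups.

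Knockdown neurons (miR-27bKD) had received a lentivirus directed at miR-27b, and control neurons (CTKD) a control lentivirus, each at a multiplicity of infection of 5, with 3 arrays per group. All 6 cultures were dissociated cortical neurons with floxed Dicer alleles (Dicerflox/flox) on the C57BL/6J strain, the control cultures included, and the labels name no Cre. They were kept in Neurobasal medium with B27 supplement and collected at day 14, from 3 neuronal preparations, with 500000 neurons seeded per well. Arrays with the same replicate number are taken below as the same preparation, which the sample titles do not state. The age of the animals is not given in the sources used here, and a lentivirus can reach every cell type in such a culture.

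The detected probes per array numbered 17498 to 19163 and the mean intensity lay between 669 and 788. Any 2 arrays correlated at a Spearman rho of 0.876 to 0.907 over probes, with knockdown replicate 3 among the lowest. Markers of excitatory neurons were present, with 10 of 11 named genes detected, and so were markers of astrocytes, with 11 of 12. No probe carried the name of miR-27b, so the knockdown could not be checked here. Precision is limited by the number of arrays.

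Members of the family act through one another. Anti-apoptotic proteins bind and restrain the effectors BAX and BAK, which otherwise form pores in the outer mitochondrial membrane. BH3-only proteins occupy the groove of the anti-apoptotic proteins or engage the effectors directly, and their genes are often switched on by stress. In neurons PUMA and BIM, the products of Bbc3 and Bcl2l11, are known for their part in death after loss of trophic support, and BCL-XL, from Bcl2l1, for its part in survival.

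The mature sequences of miR-27b show the seed through which it recognises transcripts, in capitals at bases 2 to 8. Both arms are shown because the labels do not say which was targeted. They are read from RefSeq (GRCm38.p6, chr13:63300760-63300780 for the 3p arm and chr13:63300718-63300739 for the 5p arm, both on the + strand). Target sites in the family's transcripts were not searched, since no transcript sequences were held.
mmu-miR-27b-3p: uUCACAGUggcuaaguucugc
mmu-miR-27b-5p: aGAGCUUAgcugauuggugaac

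Among the BH3-only genes, Bbc3, Bcl2l11, Pmaip1 and Bid rose after knockdown of miR-27b, by 2.25-fold, 2.23-fold, 1.55-fold and 1.32-fold. The anti-apoptotic genes Bcl2, Bcl2l1 and Mcl1 did not pass the test, with folds of 0.909, 0.923 and 0.977. Bak1, at 1.58-fold, missed the threshold. Of the 8 tested members, 4 passed limma's test in the higher direction at an adjusted p under 0.05 and 0 in the lower, where 16.6% of all genes tested passed in the higher direction, 15.3% in the lower and 31.9% in either (33.4% in either with preparation as a replicate block). Before adjustment, 5 members were above the control level and 0 below it at p under 0.05. Of the 11280 genes tested, 2540 were above and 2388 below at that unadjusted threshold. These all-gene counts are also the background for the unadjusted counts of the lists below. The 2 groups did not overlap for 5 of the 8 members, in each case with knockdown above control, which held for 24.9% of all genes, beside 23.5% with control above and 48.4% in either direction. The median difference of the 4 tested BH3-only members was 0.90 on the log2 scale and that of the 3 anti-apoptotic members -0.12. The median over all genes tested was 0.0058. These medians leave out family genes given below, of which the BH3-only genes Hrk and Bad and the anti-apoptotic gene Bcl2l2 were lower. The members had been chosen with these results known, so the counts describe the family and do not set it apart.

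**Figure D1:**
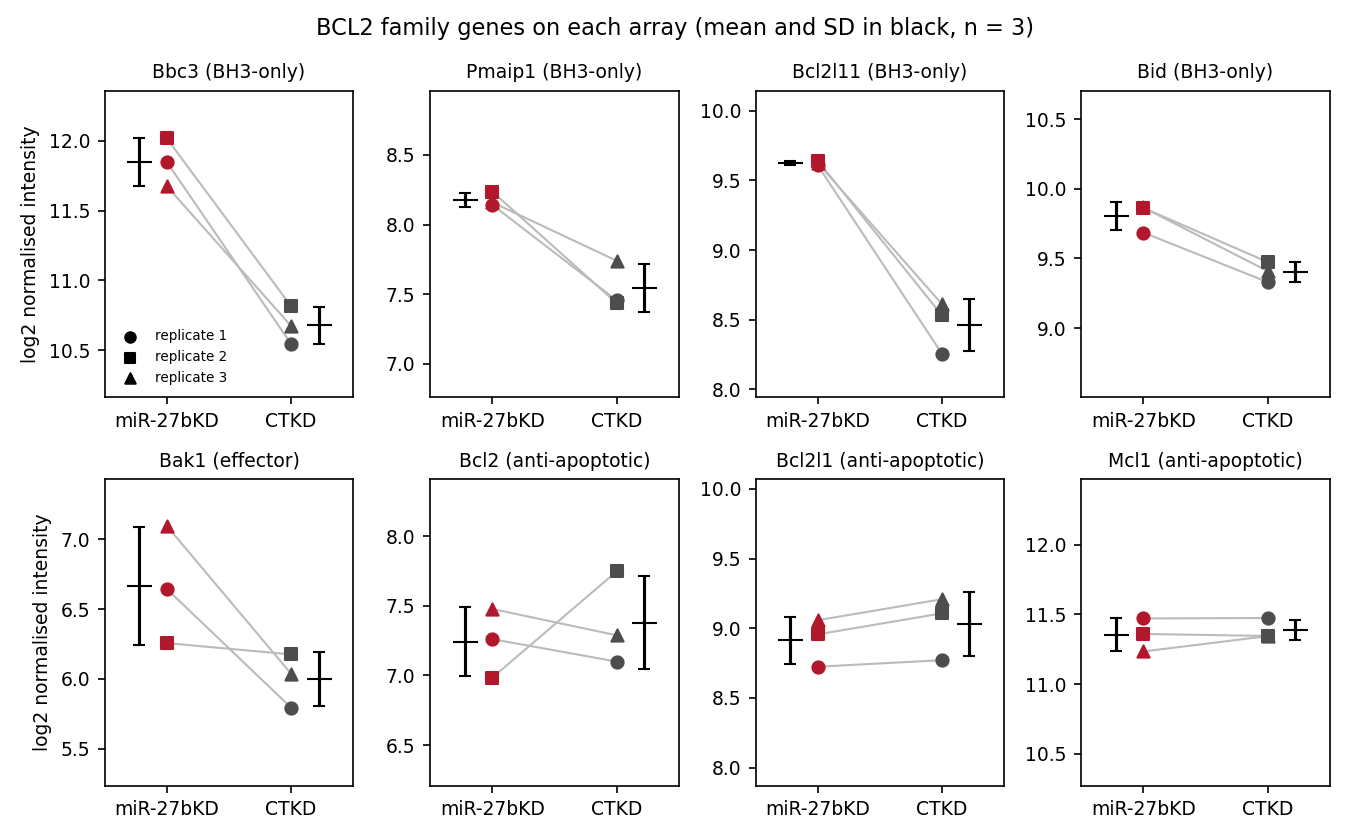
Log2 normalised intensity of the 8 tested genes on each array, with miR-27bKD left of CTKD; symbols give the replicate number, grey lines join arrays of the same number, and black bars give the mean and SD of 3 arrays. For Bbc3, Pmaip1, Bcl2l11, Bid and Bak1 the knockdown arrays all lie above the control arrays, while Bcl2, Bcl2l1 and Mcl1 overlap.

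Bbc3 encodes PUMA, a BH3-only protein that binds all the main anti-apoptotic members and is a well-known target of p53 and FOXO factors. Its log2 normalised intensities were 11.85, 12.02 and 11.68 on knockdown arrays 1 to 3, against 10.54, 10.81 and 10.67 on the control arrays. The lowest knockdown array therefore stood above the highest control array by more than the range within either group. The difference in log2 level was 1.17 (SE 0.12, 95% interval 0.88 to 1.46, n = 3 per group, limma adjusted p = 0.0011), higher in 3 of 3 pairs of arrays with the same number, and it ranked 184 among 11280 genes by the size of the rise.

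All 3 probes of Bbc3 were detected on every array. The dimmer pair gave smaller differences, 1.04 (SE 0.18) for ILMN_2690621 and 0.77 (SE 0.19) for ILMN_2690620, with adjusted p of 0.0077 and 0.0247 in the fit over all 18627 detected probes. In that fit 13.9% of probes were higher and 27.4% were called in either direction. Without background correction those differences were 0.66 and 0.49, while the bright probe ILMN_2920736 stayed at 1.14. The size read from the dim probes thus depended on the background correction, and the direction did not.

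Bcl2l11 encodes BIM, which binds all the anti-apoptotic members and can also engage BAX. Knockdown arrays 1 to 3 read 9.61, 9.64 and 9.62 log2 units, against 8.25, 8.53 and 8.61 in controls. The knockdown arrays lay within a narrow band (SD 0.017) and the controls were more spread (SD 0.19). The difference of 1.16 (SE 0.11, 95% interval 0.90 to 1.42, limma adjusted p = 0.000844) was positive in 3 of 3 pairs and ranked 193 of 11280 by the size of the rise. A second detected probe, annotated to another transcript record of the gene, differed by 0.84 (SE 0.079, adjusted p = 0.0010 in the fit over probes), or 0.57 without background correction. The other 2 probes of Bcl2l11 stayed near background, with ILMN_1229255 detected on 1 of 3 knockdown arrays and no control array, and ILMN_3078327 on none.

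Pmaip1 encodes NOXA, a small BH3-only protein that binds chiefly MCL1. Its representative probe read 8.14, 8.24 and 8.16 in knockdown neurons, against 7.46, 7.44 and 7.74 in controls, so that the groups did not overlap. The difference was 0.64 (SE 0.11, 95% interval 0.38 to 0.89, limma adjusted p = 0.0057, higher in 3 of 3 pairs). A second detected probe of Pmaip1, ILMN_1245289, read 7.05, 6.91 and 6.77 in knockdown neurons and 6.93, 6.11 and 7.04 in controls. Those values overlapped, with a difference of 0.21 (SE 0.25, adjusted p = 0.56 in the fit over probes). Averaging both probes gave 0.42 with a limma adjusted p of 0.0862, so the call for Pmaip1 rests on 1 of its 2 detected probes. It was also lost without both arrays of preparation 1 (0.61, adjusted p = 0.0729) or of preparation 2 (0.55, adjusted p = 0.073). The third probe, ILMN_2724526, was detected on no array.

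Bid encodes a BH3-only protein that caspase-8 cuts to link death receptors to mitochondria. It read 9.69, 9.86 and 9.87 in knockdown neurons and 9.33, 9.47 and 9.41 in controls, without overlap. The difference of 0.40 (SE 0.089, 95% interval 0.19 to 0.61, limma adjusted p = 0.0162) was the smallest of the 4 that passed, and was positive in 3 of 3 pairs. It no longer passed without knockdown replicate 2 (0.37, adjusted p = 0.057), without control replicate 1 (0.36, adjusted p = 0.0635) or with median scaling of the arrays (0.31, adjusted p = 0.226), nor without both arrays of any 1 preparation (adjusted p of 0.0769 to 0.104). The other probe of Bid was detected on no array. Bmf, whose product is held at the cytoskeleton until stress frees it, gave deposited intensities of 109, 122 and 115 in knockdown neurons and 118, 110 and 90.0 in controls. Its detection p-values ran from 0.0705 to 0.400, so no difference can be read for it at this signal.

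**Figure D2:**
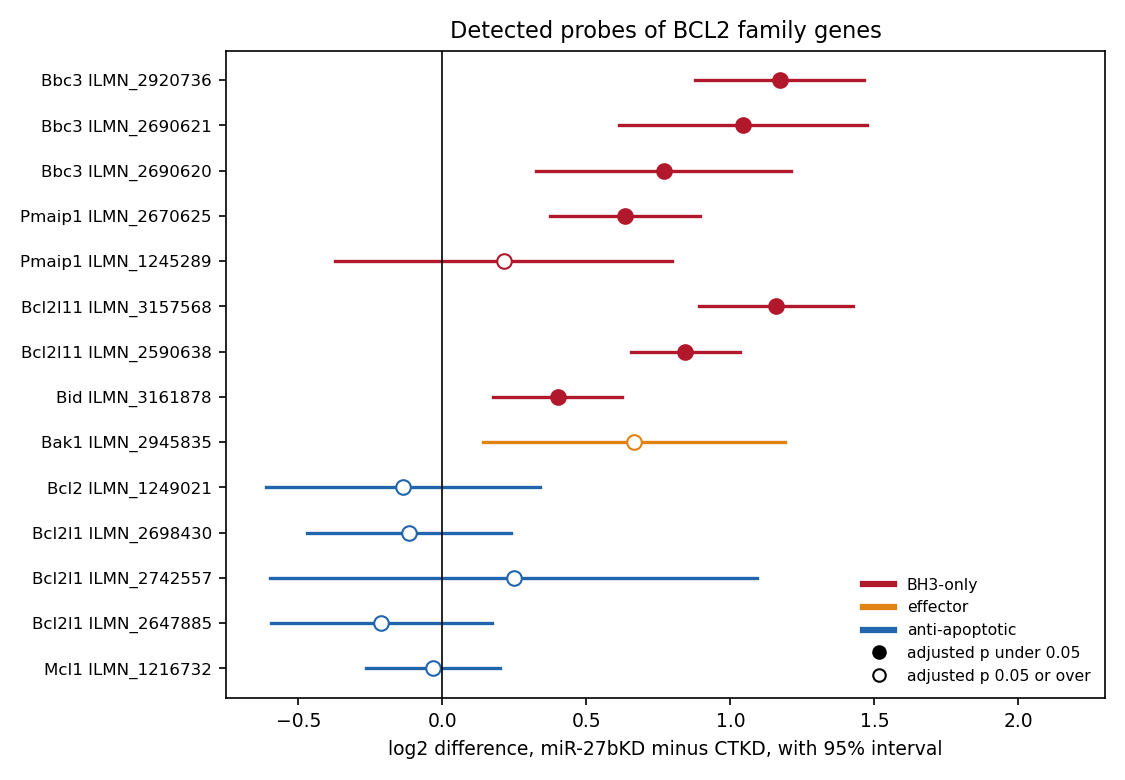
Log2 difference, miR-27bKD minus CTKD, for the 14 detected probes of the family, with 95% intervals from the fit over all detected probes; filled symbols have an adjusted p under 0.05. Of the 14 probes 7 are called higher, all of BH3-only genes, and 0 lower, and the intervals of the anti-apoptotic probes all cover 0.

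Promoters are shown for Bbc3 and Bcl2l11, the members with the largest differences, because FOXO factors are known to induce both and the FOXO core GTAAACA stands in a promoter window of each. The windows run from 250 bases before to 50 bases after an annotated start and come from RefSeq (GRCm38.p6). The Bbc3 window is chr7:16310011-16310310 and the Bcl2l11 window chr2:128125788-128126087, both on the + strand. Capitals mark the core, which begins 167 bases before the start for Bbc3, read on the opposite strand there, and 227 bases before it for Bcl2l11.
Bbc3: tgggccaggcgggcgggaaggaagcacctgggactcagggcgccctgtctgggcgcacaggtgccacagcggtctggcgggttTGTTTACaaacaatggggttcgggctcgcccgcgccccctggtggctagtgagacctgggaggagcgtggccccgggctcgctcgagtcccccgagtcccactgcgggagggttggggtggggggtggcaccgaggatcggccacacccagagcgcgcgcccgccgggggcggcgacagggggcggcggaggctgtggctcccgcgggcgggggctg
Bcl2l11: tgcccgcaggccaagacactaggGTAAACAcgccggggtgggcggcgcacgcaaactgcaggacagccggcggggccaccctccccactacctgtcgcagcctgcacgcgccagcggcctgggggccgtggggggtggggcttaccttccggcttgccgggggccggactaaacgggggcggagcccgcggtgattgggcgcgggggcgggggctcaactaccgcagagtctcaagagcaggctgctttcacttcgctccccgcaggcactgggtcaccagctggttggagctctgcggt

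Windows of 9 of the 10 genes were searched, 16 windows in all. The search left out members' windows on 1 chromosome, and no window of Pmaip1 was searched. The shares over all windows were taken without that exclusion. On either strand the core was present in 2 of the 16 windows, 1 each of Bbc3 and Bcl2l11, against 3.65% of 32851 windows over all genes. The core was picked after these sequences had been seen. The AP-1 core TGANTCA (7.81% of all windows), the CRE core TGACGTCA (1.79%) and the ATF4-CHOP core TGATGNAA (3.97%) were in none of the 16. A p53 half-site, held by 8.36% of all windows, was matched in a window of Bmf and of Bax. These are matches of letters, and binding was not measured.

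Bak1 encodes the effector BAK. It was dim, detected on 3 of 3 knockdown arrays and 2 of 3 control arrays, and read 6.64, 6.26 and 7.10 in knockdown neurons, against 5.79, 6.18 and 6.04 in controls. The groups did not overlap, although knockdown replicate 2 lay close to control replicate 2. The difference was 0.66 (SE 0.22, 95% interval 0.14 to 1.19), with a limma adjusted p of 0.0595. Without knockdown replicate 2 it was 0.87 and passed (adjusted p = 0.0253), and with median scaling it was 0.65 and passed (adjusted p = 0.0256). Without background correction it was 0.36. For Bax no level is given here.

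The 3 anti-apoptotic members showed no difference that passed, unlike Bcl2l2, an anti-apoptotic gene outside the 10 that is given below. Mcl1, which encodes a short-lived protein, read 11.47, 11.36 and 11.23 in knockdown neurons and 11.47, 11.35 and 11.34 in controls, almost the same range. Its difference was -0.033 (SE 0.093, limma adjusted p = 0.82), and the 95% interval in fold was 0.838 to 1.14. Bcl2l1 read 8.72, 8.96 and 9.06 in knockdown neurons and 8.77, 9.11 and 9.21 in controls. It was lower in 3 of 3 pairs, by little, with a difference of -0.12 (SE 0.15, adjusted p = 0.58, fold interval 0.725 to 1.17). Its other detected probes differed by 0.25 and -0.21, neither passing, and the first of these read 8.67 on knockdown replicate 3 against 7.58 and 7.18 on the other 2 knockdown arrays.

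Bcl2, the founding member of the family, read 7.26, 6.98 and 7.48 in knockdown neurons and 7.10, 7.75 and 7.29 in controls. The pairs disagreed in sign, at 0.16, -0.76 and 0.19, and control replicate 2 was the highest of the 6 arrays. The difference was -0.14 (SE 0.20, adjusted p = 0.64, fold interval 0.654 to 1.26). Its second probe was detected on no array. A p that misses the threshold does not show that these 3 genes were unchanged, and the interval of each gives the changes that remain possible for it, widest for Bcl2 and narrowest for Mcl1.

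Other genes of the BCL2 family moved in both directions. Of 18 with a named probe 9 were detected, and 2 of these rose, 4 fell and 3 did not pass, with a median of -0.21. Bok, which encodes a relative of BAX and BAK found largely at the endoplasmic reticulum, read 10.82, 10.74 and 10.81 in knockdown neurons against 9.73, 9.61 and 9.73 in controls. It rose by 1.10 (SE 0.078, limma adjusted p = 0.000395), or 2.15-fold, and its other detected probe by 1.37 (SE 0.17). Bcl2l2, which encodes the anti-apoptotic protein BCL-W, read 10.92, 10.88 and 10.90 in knockdown neurons against 11.99, 11.90 and 11.94 in controls. Its difference was -1.04 (SE 0.072, adjusted p = 0.000376), or 0.485-fold, and that of its other detected probe -1.04. For both genes the gap between the groups was far wider than the spread within either.

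Not every BH3-only gene rose. Hrk, whose product is a BH3-only protein of neurons, read 7.23, 7.28 and 7.15 in knockdown neurons and 7.74, 7.68 and 7.90 in controls, a difference of -0.56 (SE 0.091, limma adjusted p = 0.0054). Bad, a BH3-only gene whose product is held inactive by 14-3-3 proteins, differed by -0.37 (adjusted p = 0.0115). Bnip3l, which encodes the mitophagy receptor NIX, differed by -0.42 (SE 0.086, adjusted p = 0.012), or with an adjusted p of 0.0502 without control replicate 1. The second gene of this list that rose was Bnip2, by 0.36 (adjusted p = 0.0458). Bad and Bnip2 are named to complete the count and were chosen after their values had been seen. Bik, another BH3-only gene, was not detected.

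**Figure D3:**
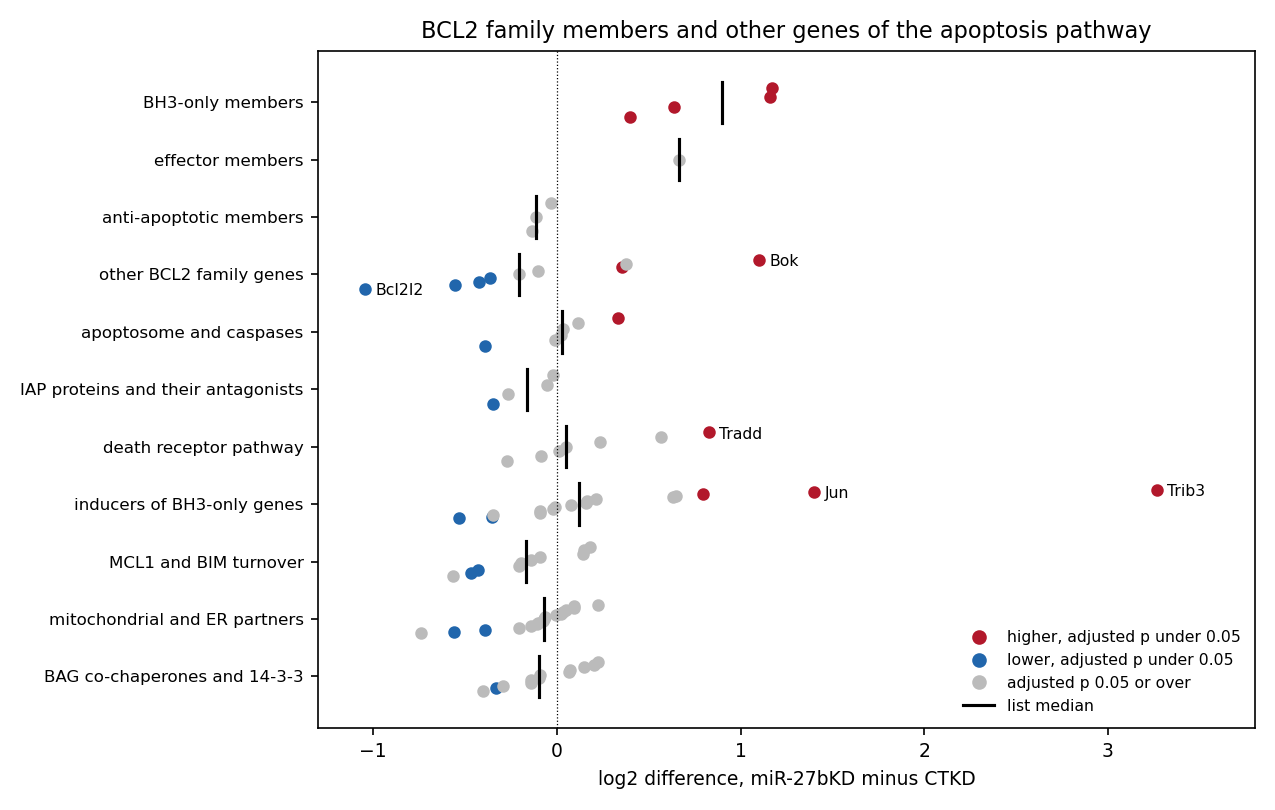
Log2 difference, miR-27bKD minus CTKD, of each tested gene of the members and of 8 other lists of the apoptosis pathway; coloured points have an adjusted p under 0.05, and black lines are list medians. The 4 tested BH3-only members lie to the right of 0, Bok and Bcl2l2 lie near 1 and -1, and Trib3 and Jun lie furthest to the right.

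Downstream of the mitochondria little moved. Of 6 tested genes of the apoptosome and caspase list, 1 rose, 1 fell and 4 did not pass, with a median of 0.029 that turned to -0.049 with median scaling. Apaf1, the scaffold of the apoptosome, differed by -0.0092 (SE 0.17, limma adjusted p = 0.98) and Casp9, the initiator caspase it activates, by 0.023 (SE 0.080, adjusted p = 0.85). Casp2 rose by 0.33 (SE 0.081, adjusted p = 0.0233), a call lost with median scaling (0.23, adjusted p = 0.412) and without any 1 of 4 arrays (knockdown replicates 1 and 2, control replicates 2 and 3), and Cycs, the gene of cytochrome c, fell by 0.39 (SE 0.082, adjusted p = 0.0134, or 0.0546 without control replicate 1).

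Among the inhibitor of apoptosis proteins and their antagonists, 0 of 4 tested genes rose by limma and 1 fell (0 and 2 at an unadjusted p under 0.05), with a median of -0.16. The gene that fell was Diablo, whose product frees caspases from those inhibitors, at -0.35 (SE 0.076, adjusted p = 0.0153). It did not pass with median scaling (adjusted p = 0.0816) or without control replicate 1 (adjusted p = 0.0626). In the death receptor list 1 of 7 rose and 0 fell (2 and 0 unadjusted), with a median of 0.047, and with preparation as a replicate block 2 rose. Tradd, an adaptor of the TNF receptor, rose by 0.83 (SE 0.12, adjusted p = 0.0038), and its difference shrank to 0.50 when no background was removed. Its other detected probe differed by 0.058 (adjusted p = 0.87 in the fit over probes), and the mean of both gave 0.44 with an adjusted p of 0.0636.

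Known inducers of BH3-only genes held Trib3 and Jun, with the largest rises in these lists. The test called 3 of 16 higher and 2 lower, with a median of 0.12; with preparation as a replicate block 5 rose and 3 fell. Jun, a transcription factor gene of the JNK pathway that induces BIM in neurons, read 10.90, 11.12 and 11.21 in knockdown neurons against 9.52, 9.57 and 9.94 in controls, a rise of 1.40 (SE 0.14, limma adjusted p = 0.0011). Trib3, a target of the stress factors ATF4 and CHOP, rose by 3.27 (SE 0.53, adjusted p = 0.0054), or by 2.37 without background correction. Its control arrays were dim, at 5.89, 7.35 and 5.33, and it had no value where detection on all 6 arrays was required. Atf4 rose by 0.80 (SE 0.15, adjusted p = 0.0087, or 0.0505 with median scaling).

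Ddit3, the gene of CHOP, read 10.75, 11.28 and 10.47 in knockdown neurons against 9.98, 10.84 and 9.73 in controls. The groups overlapped because replicate 2 was high in both. The difference of 0.65 (SE 0.33) did not pass (limma adjusted p = 0.18), passed with preparation as a replicate block (adjusted p = 0.0124), and without control replicate 2 was 0.98 (adjusted p = 0.0425). The FOXO genes lay lower. Foxo1 fell by 0.53 on the log2 scale (SE 0.098, adjusted p = 0.0082), and Foxo3 differed by -0.35 (SE 0.12, adjusted p = 0.067, or 0.0255 with the replicate block and 0.0406 without control replicate 3). These are transcript levels, and the activity of FOXO proteins was not measured. No probe named Trp53 was used.

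In the lists of genes that control turnover of MCL1 and BIM, of mitochondrial and endoplasmic reticulum partners, and of BAG co-chaperones with 14-3-3 proteins, limma called 0 genes higher. The first list had 2 of 10 genes lower with a median of -0.17, the second 2 of 17 with -0.073 and the third 1 of 12 with -0.095. Without adjustment of the p, 0 genes were up and 3 down in the first list, 1 up and 2 down in the second, and 0 up and 3 down in the third. With median scaling, where the median of all genes was -0.078, the lists' medians were -0.29, -0.22 and -0.22. Cul2 differed by -0.47 (SE 0.099, adjusted p = 0.0139) and Btrc, a ubiquitin ligase subunit gene, by -0.43 (SE 0.086, adjusted p = 0.0117). One of the other 3 detected probes of Cul2 differed by only -0.0033. Mtch1 fell by 0.39 (adjusted p = 0.0143) and Bag4 by 0.33 (adjusted p = 0.0279). Becn1, the autophagy gene whose product binds BCL2, differed by -0.56 (SE 0.16, adjusted p = 0.0341, or 0.0698 with the replicate block). The calls of Mtch1, Bag4 and Becn1 were each lost without control replicate 2, at adjusted p of 0.0504, 0.07 and 0.0963, and those of Bag4 and Becn1 also without control replicate 1 (0.0977 and 0.107). Becn1 was lost too without knockdown replicate 1 or 2 (adjusted p of 0.0987 and 0.0997). Bag4 was lost too without knockdown replicate 2 or 3 (adjusted p of 0.0888 and 0.0648) and with median scaling (0.116). Both were lost with no filter on dim probes (0.0636 for Becn1 and 0.0632 for Bag4). Among the called pathway genes named outside the members, Bok, Bcl2l2 and Jun passed in all 20 alternatives. Bad and Bnip2 were not followed through the alternatives. Without both arrays of preparation 1 the calls of Hrk, Bnip3l, Casp2, Cycs, Diablo, Tradd, Trib3, Atf4, Foxo1, Cul2, Btrc, Becn1, Mtch1 and Bag4 were lost, at adjusted p of 0.0503 to 0.232, with the same sign in each. Of these, Casp2, Diablo, Cul2, Btrc, Mtch1 and Bag4 were also lost without preparation 2 and without preparation 3. Bnip3l, Cycs and Becn1 were also lost without preparation 2.

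Markers of several cell types moved with the groups. In bulk RNA, fewer cells of a type and less RNA per cell cannot be told apart. Of 11 tested inhibitory neuron markers 8 were lower and 0 higher, with summed normalised intensities of 37780 to 42279 on knockdown arrays against 69947 to 75400 on control arrays; Gad2, Dlx5 and Lhx6 were not detected. Vip and Cck differed by -1.84 and -1.40 (limma adjusted p at most 0.000341). The 3 that did not pass lay above 0, with Calb2 at 0.26, Dlx2 at 0.096 and Dlx1 at 0.082 (limma adjusted p of 0.149, 0.738 and 0.540). Calb2, Dlx2 and Dlx1 are named after their values had been seen. Of 11 astrocyte markers 5 were lower and 0 higher, with sums of 18801 to 23544 against 25184 to 34585; S100b was not detected, and Gfap and Aqp4 differed by -1.83 and -1.29 (adjusted p at most 0.0055). The call of Gfap was lost without both arrays of preparation 1 (-1.90, adjusted p = 0.0613), and its other detected probe differed by -1.08 (adjusted p = 0.0944 in the fit over probes). Of 10 excitatory neuron markers 4 were lower and 2 higher, with sums of 22529 to 22690 against 22739 to 23550, and Nptx1 and Camk2a differed by -1.15 and -1.03 (adjusted p at most 0.00185). The 2 that were higher were Slc17a6, by 0.79 (adjusted p = 0.00109), and Neurod2, by 0.52 (adjusted p = 0.00381), named to complete the count after their values had been seen.

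Most markers of microglia and of vascular cells and fibroblasts were not detected. Of 12 microglia markers 10 were not detected, among them Cx3cr1, Csf1r and Tmem119. Sums over the other 2 were 122 to 135 in knockdown neurons against 134 to 183 in controls. These 2 moved in opposite directions. Cd68 differed by -1.01 (limma adjusted p = 0.004), or -0.53 without background correction, and Aif1 by 0.43 (limma adjusted p = 0.0753). Aif1 is named after its value had been seen. Oligodendrocyte lineage markers had 4 of 9 detected, with Sox10 and Mog not detected and sums of 4815 to 7731 against 8291 to 11142. None of the 4 passed by limma, and 1 was lower at an unadjusted p under 0.05. Olig1 and Cspg4 had the lowest p, at -0.63 (limma adjusted p = 0.0531, or 0.0123 with the replicate block) and -0.32. Olig1 passed in 10 of the 20 alternatives, with the same sign in all 20. Cnp, named after its value had been seen, differed by -0.46 (limma adjusted p = 0.25, or 0.0249 with the replicate block). Vascular and fibroblast markers had 4 of 12 detected, with Cldn5 and Col3a1 not detected and sums of 879 to 1547 against 836 to 1959. None of these passed by limma, 1 was higher and 1 lower unadjusted, and Col1a1 and Kdr differed by 0.45 (limma adjusted p = 0.0662, or 0.0399 with the replicate block) and -0.44. Of 6 progenitor markers 1 was lower, Hes5 at -1.08 (limma adjusted p = 0.0397, lost without any 1 of 4 arrays). The other detected probe of Hes5 differed by -0.68 (adjusted p = 0.173 in the fit over probes). Of the 6 differences 3 were above 0, with Nes at 0.57 (limma adjusted p = 0.0666, or 0.0185 with the replicate block). Nes is named after its value had been seen. The progenitor sums of 1706 to 2589 in knockdown neurons overlapped those of 1653 to 2480 in controls. The part of cell makeup in the BCL2 family differences was not tested, and cell death was not measured in these files.

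Across 20 other ways of processing the arrays, Bbc3 and Bcl2l11 passed each time, at 0.99 to 1.26 and 1.00 to 1.23. Pmaip1 passed in 17 of 20 and Bid in 14 of 20, each with the same sign in all 20. Bak1 passed in 3 of the 19 that kept it and was positive in all 19. Bcl2, Bcl2l1 and Mcl1 passed in 0 of 20, and the sign of Bcl2 and of Mcl1 turned in some.

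**Figure D4:**
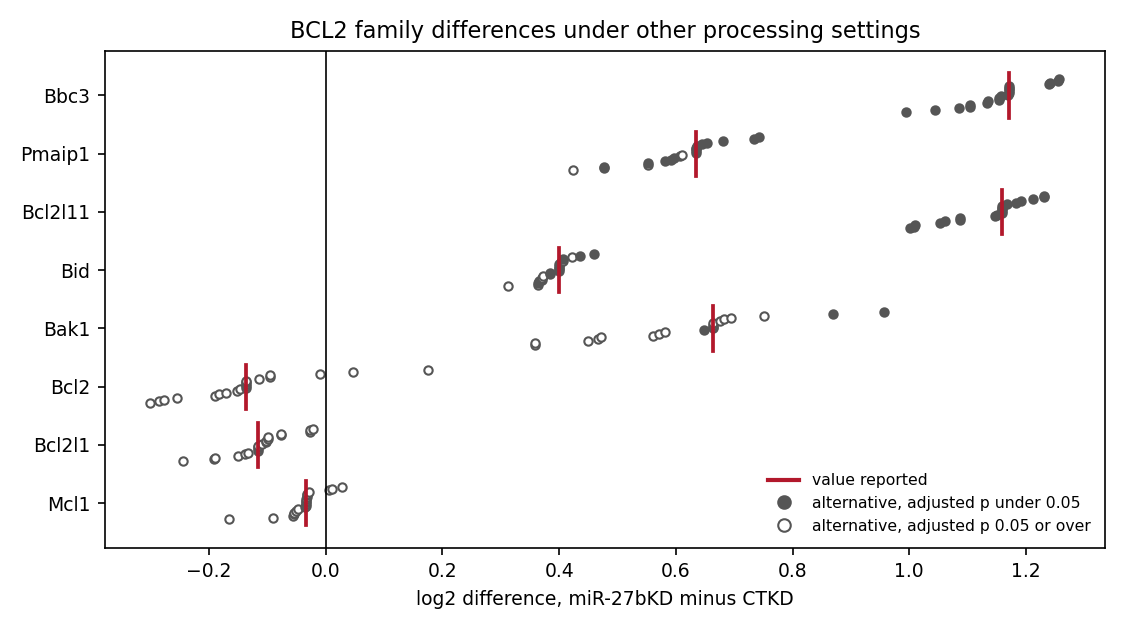
Log2 difference, miR-27bKD minus CTKD, of the 8 tested genes as reported (red line) and under each alternative setting (points, filled where the adjusted p is under 0.05). Bbc3 and Bcl2l11 stay near 1 or above with every point filled, and no point of Bcl2, Bcl2l1 or Mcl1 is filled.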

How the data were processed

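Total RNA, 500 ng per sample, was made into biotin-labelled cRNA and read on an Illumina bead array, per the labels' protocols. Per the file headers, the deposited intensity table is non-normalised and pairs each probe's intensity with a detection p-value. No intensity is at or below 0, and they were treated as still holding background; which software read the arrays is not stated in the sources used here. The other deposited intensity table matched quantile normalisation of the first to within 0.00462 (log2), and was used as an alternative start.

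Groups and replicate numbers came from the sample titles. Intensities were corrected by normexp from the detection p-values (limma 3.58.1 neqc, offset 16, R 4.3.3), quantile normalised and put on the log2 scale. Detection (p-value below 0.05) on 3 or more arrays was required, which left 18627 of 45281 probes. Of all probes 35784 have 1 gene symbol, none has several and 9497 have none. Symbols of 937 were updated by gene ID or accession with a RefSeq table of GRCm38.p6. Each of 11280 genes was represented by its brightest kept probe, and members' other probes were tested in a fit over all kept probes. Differences are miR-27bKD minus CTKD from limma's lmFit and eBayes on all 6 arrays, with Benjamini-Hochberg adjusted p-values over all genes and a threshold of 0.05. The fit was tested on simulated data. The design gives 3 preparations, but the titles do not tie a replicate number to a preparation. Same-numbered arrays deviated together (r = 0.148, 0.253 and 0.250 across genes) and were taken as pairs from the same preparation. The main fit did not use these pairs, and a block fit that did was an alternative.

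Members and lists were chosen with earlier results of these data known. All members and probes are named, up to 4 called genes with the largest differences per pathway list (the 2 with the lowest p where none passed), 2 per marker list, and Apaf1, Casp9, Trp53, Foxo3, Jun and Ddit3 in any case; 1 other gene of that rule is not reported here. Alternatives covered background, scaling, starting values, filters, pairing, variance model, array weights, probe choice and left-out arrays.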

Additional observations from a re-analysis of the deposited data

How the results depend on the processing

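With median scaling 919 genes were higher, against 1873, so that 40.1% of calls were higher, against 52.1%; Bid was 0.31 and no longer passed, and Bak1 was 0.65 and passed. Averaging detected probes took Pmaip1 to 0.42, below the threshold. Leaving out 1 array or 1 preparation gave 590 to 1692 genes higher and 571 to 1487 lower (1237 and 1053 without control replicate 1), and 2 to 4 members higher and 0 lower. It gave 0.55 to 0.74 for Pmaip1, 0.36 to 0.46 for Bid and 0.45 to 0.96 for Bak1. Without preparation 1, with 2 arrays per group left, Bbc3 and Bcl2l11 alone of the members passed. With preparation as a replicate block the family gave the same counts, 4 members higher and 0 lower, with adjusted p of 0.0034 for Bbc3, 0.0037 for Bcl2l11, 0.0139 for Pmaip1 and 0.0195 for Bid, and 1931 genes were higher and 1841 lower. Of the genes named above, the block changed the calls of Ddit3, Foxo3, Becn1, Olig1, Cnp, Col1a1 and Nes. Bak1 had no value where detection on all 6 arrays was required. Dim probes, Bak1 and Bmf above all, limit what can be read.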
